A study of Mus musculus with 12 samples.

Results

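Interferon regulatory factors (IRFs) are transcription factors that bind purine-rich elements in the control regions of interferons and interferon-induced genes. Irf3 and Irf7 act downstream of sensors of viral and bacterial nucleic acids and switch on type I interferon genes, Irf9 is the DNA-binding subunit of a complex that forms after interferon receptor signalling, Irf1 is an interferon-induced activator and Irf2 its competitor for the same elements. Irf5 drives inflammatory cytokine genes in myeloid cells, and Irf4 and Irf8 pair with ETS or AP-1 factors in lymphoid and myeloid cells. Accessible chromatin at the genes for these 8 factors, Irf1, Irf2, Irf3, Irf4, Irf5, Irf7, Irf8 and Irf9, was compared in stromal cells (SCs) of lymph nodes (LNs). A peak, a stretch of open chromatin detected by ATAC-seq, in which a transposase cuts accessible DNA and tags it for sequencing, was assigned to a gene when that gene had the nearest protein-coding transcription start site (TSS) on GRCm38. Of 42424 distinct peaks, 30 belonged to 7 of the 8 genes.

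The cells were non-endothelial SCs, sorted as CD45-CD24-CD31-Pdpn+ from wild-type adult BALB/c mice. The 4 groups combined LN location, gut-draining mesenteric LN (mLN) or skin-draining peripheral LN (pLN), with housing, either germ-free (GF) or free of specific pathogens (SPF). Values of 11 libraries were used, 3 in each group except pLN-GF with 2. The study derived GF mice by cesarean section at another institution than the one that bred SPF mice, and kept them at either site. It names a CD90.1 line for SPF BALB/c mice, and gives a lower age range for GF mice while calling mice age-matched, so housing cannot be told apart from colony or age. It also states that bulk sequencing was repeated in independent experiments, without saying which libraries. The labels did not say whether libraries came from separate mice, and p-values therefore measured the spread between these libraries.

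Reads inside peaks ranged from 2886129 to 10380493 per library, with a median of 37 to 136 reads per peak. The first principal component, 51.5% of the variance, separated mLN libraries (-95.6 to -27.4) from pLN libraries (50.3 to 96.6), and the mLN libraries numbered 2 in both housings lay nearest to pLN (-38.5 in mLN-GF and -27.4 in mLN-SPF). Promoter peaks were present for 6 of 8 marker genes of non-endothelial SCs, 1 of 14 of hematopoietic cells (Coro1a) and 4 of 8 of endothelial cells (Tek, Kdr, Prox1 and Flt4). No promoter peak was listed for Pdpn, the gene of the sorting marker, or for Ccl19, nor for Ptprc, which encodes CD45, or Pecam1, which encodes CD31.

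The 30 peaks fell unevenly among the genes. Irf2 had 10, Irf8 had 9, Irf4 had 5, Irf1 had 3, and Irf3, Irf7 and Irf9 had 1 each. No peak was nearest to Irf5. The closest peak to its TSS, 13.0 kb away, was nearest to Kcp. By position, 8 peaks (26.7%, against 30.1% of all peaks) lay within 1 kb of a TSS of the member and are called promoter peaks here. Of the others, 14 (46.7%, against 29.3%) lay in introns and 8 (26.7%, against 37.0%) between genes. Introns of any protein-coding gene were counted. The intronic peaks assigned to Irf4 lay in Exoc2, and several assigned to Irf8 lay in the gene model Gm20388 and outside Irf8. Distances below are from the first TSS of the gene to the centre of the peak, positive in the direction of transcription.

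Between mLN and pLN, 3 of the 30 peaks, all distal, were called, with an adjusted p below 0.05 and at least a 2-fold change. That is 10%, against 10.8% of all peaks between mLN-SPF and pLN-SPF and 15.5% averaged over housing. Their sequences are shown because they are the member peaks called. One lay in an intron of Irf8, at +7.7 kb (chr8:120743990-120744099, 110 bases), one at +99.0 kb from Irf4 inside an intron of Exoc2, which encodes a subunit of the exocyst (chr13:30848131-30848372, 242 bases), and one in an intron of Irf2 at +96.4 kb (chr8:46835700-46836467, 768 bases). Each stretch below holds 300 bases of GRCm38 around the centre of the peak, plus strand, with capitals at matches to the motifs searched.
Irf8 +7.7 kb, chr8:120743895-120744194: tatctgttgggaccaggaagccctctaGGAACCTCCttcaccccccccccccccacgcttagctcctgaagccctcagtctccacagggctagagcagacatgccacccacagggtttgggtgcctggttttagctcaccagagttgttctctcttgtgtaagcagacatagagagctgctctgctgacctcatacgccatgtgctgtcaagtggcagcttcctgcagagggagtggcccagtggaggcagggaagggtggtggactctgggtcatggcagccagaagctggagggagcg
Irf4 +99.0 kb, chr13:30848102-30848401: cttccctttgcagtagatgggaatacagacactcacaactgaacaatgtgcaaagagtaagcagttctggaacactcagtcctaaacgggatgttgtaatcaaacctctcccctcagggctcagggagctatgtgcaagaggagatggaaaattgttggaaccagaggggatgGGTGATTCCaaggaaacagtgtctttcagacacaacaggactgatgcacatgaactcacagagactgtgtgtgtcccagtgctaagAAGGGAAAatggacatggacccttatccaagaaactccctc
Irf2 +96.4 kb, chr8:46835934-46836233: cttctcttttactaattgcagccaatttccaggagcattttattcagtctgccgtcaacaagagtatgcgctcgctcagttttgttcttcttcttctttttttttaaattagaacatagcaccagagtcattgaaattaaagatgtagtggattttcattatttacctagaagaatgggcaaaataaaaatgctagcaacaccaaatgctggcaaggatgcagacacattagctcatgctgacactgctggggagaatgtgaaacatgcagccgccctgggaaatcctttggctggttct
Motifs were searched on both strands as the letters AANNGAAA (IRF core), GAAANNGAA (interferon-stimulated response element), GGAANNGAA (ETS-IRF composite), TTCNNNGAA (STAT site), GGAANNNCC (NF-kB site) and TGANTCA (AP-1 site), of which the first 3 can overlap. The Irf8 stretch held 1 match, GGAACCTCC, to the NF-kB letters. The Irf4 stretch held the IRF core as AAGGGAAA and the NF-kB letters on the minus strand, where the plus strand shown reads GGTGATTCC. The Irf2 stretch held no match.

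Over all 30 member peaks the IRF core was found in 11 (36.7%), against 26.7% of all peaks searched in the same 300-base window. The interferon-stimulated response element was found in 6 member peaks (20% against 9.19%), the STAT letters in 4 (13.3% against 10.1%) and the NF-kB letters in 8 (26.7% against 22.7%). ETS-IRF letters were found in 2 (6.67% against 8.6%) and AP-1 letters in 5 (16.7% against 18.3%). The 6 peaks with the response element were Irf4 -24.2 kb, Irf2 +41.5 kb and +103.2 kb, and Irf8 -24.8 kb, +15.8 kb and +166.1 kb, all distal. These shares are descriptions of letters in a window.

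The Irf8 peak at +7.7 kb was open in mLN and low in pLN. Its accessibility, in reads per peak length and sequencing depth (RPKM), was 56.6, 30.1 and 35.2 in mLN-SPF and 43.2, 49.5 and 35.9 in mLN-GF. In pLN-SPF it was 11.3, 2.9 and 14.9, and in pLN-GF 11.9 and 10.4. The 6 mLN libraries all lay above the 5 pLN libraries. On the scale of log2(RPKM + 1) mLN exceeded pLN by 2.14 (SE 0.42, limma adjusted p = 0.00657) under SPF and by 1.84 (SE 0.47, adjusted p = 0.0182) under GF housing. Averaged over housing the difference was 1.99 (SE 0.32, adjusted p = 0.000425), the lowest adjusted p among the members. The peak is narrow and rested on 11 to 35 reads in each mLN library and 3 to 13 in each pLN library. The GF difference no longer passed without pLN-GF replicate 1 (1.93, adjusted p = 0.0932) or pLN-GF replicate 3 (1.76, adjusted p = 0.116), each of which leaves 1 pLN-GF library whose spread is assumed to equal that of the other groups.

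The Irf4 peak at +99.0 kb had the same direction with a wider spread. In mLN-SPF it reached 36.2, 19.0 and 58.2 RPKM, and in mLN-GF 26.2, 13.5 and 31.2. The pLN-SPF libraries had 7.5, 8.8 and 4.1 and the pLN-GF libraries 6.2 and 8.9. All mLN libraries were again above all pLN libraries, and the lowest in each mLN group was the library numbered 2. The difference was 2.24 (SE 0.43, adjusted p = 0.00588) under SPF and 1.47 (SE 0.48, adjusted p = 0.0534) under GF housing, where it missed the threshold. Averaged over housing it was 1.85 (SE 0.32, adjusted p = 0.000773). Without both mLN libraries numbered 2 the GF difference was 1.81 (adjusted p = 0.013), past the threshold. Leaving out the lowest mLN libraries raises this difference by construction. It also passed without any one of mLN-GF replicate 2 (adjusted p = 0.0257), mLN-SPF replicate 2 (0.0332), mLN-SPF replicate 3 (0.0385) and pLN-SPF replicate 3 (0.0407). In 7 of the 11 fits with 1 library left out it still missed the threshold, and the difference ran from 1.24 to 1.81 over all 11.

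The Irf2 peak at +96.4 kb was the lowest of the 3 in accessibility. It had 12.9, 17.5 and 15.6 RPKM in mLN-SPF and 20.3, 21.2 and 15.4 in mLN-GF. In pLN-SPF it had 4.2, 4.6 and 6.8, and in pLN-GF 7.3 and 7.5. Here too no mLN library overlapped the pLN range. The difference was 1.41 (SE 0.33, adjusted p = 0.0126) under SPF, 1.24 (SE 0.36, adjusted p = 0.0331) under GF housing and 1.33 (SE 0.24, adjusted p = 0.00111) averaged over housing. The SPF call was lost without pLN-SPF replicate 1 (adjusted p = 0.0538) or 2 (adjusted p = 0.0513). The GF call was lost without any one of the 5 GF libraries (adjusted p = 0.053 to 0.172) and without both mLN libraries numbered 2 (adjusted p = 0.0975).

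**Figure D1:**
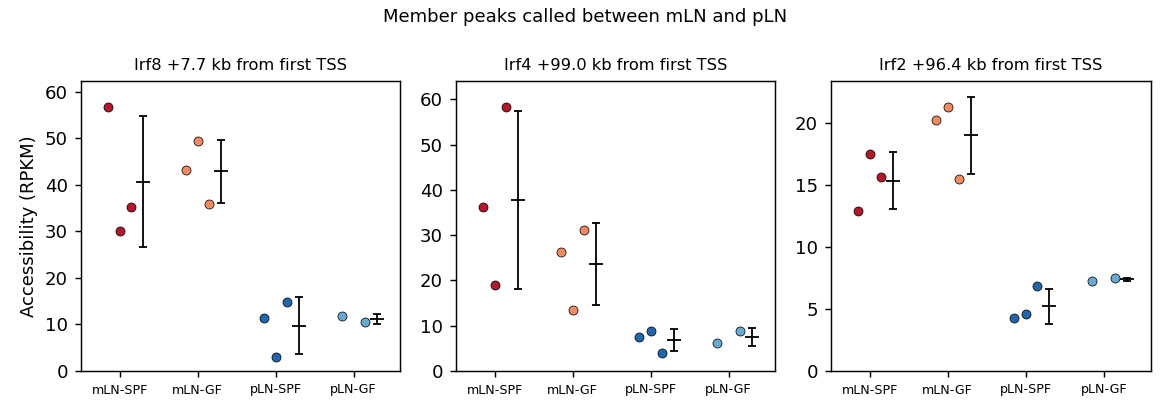
Accessibility in RPKM (vertical axis, from 0) of the 3 member peaks called between mLN and pLN, by group. Points are libraries, and the bar beside them is the mean with SD (n = 3, or 2 in pLN-GF). At Irf8 +7.7 kb the mLN libraries span 30.1 to 56.6 and the pLN libraries 2.9 to 14.9.

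A differentially accessible region (DAR) was a peak with a Benjamini-Hochberg adjusted p below 0.05 over all 42424 peaks and at least a 2-fold change on the log2(RPKM + 1) scale. Between mLN-SPF and pLN-SPF, 3 of 30 member peaks (10%) were DARs, against 10.8% of all peaks, and all 3 were higher in mLN, where 6.49% of all peaks were called. Between mLN-GF and pLN-GF, 2 of 30 (6.67%) were DARs, against 13.2% of all peaks, both higher in mLN (8.55% of all peaks). Averaged over housing the count was 3 of 30 (10%), against 15.5% of all peaks in either direction and 9.43% higher in mLN. Counted in either direction, the share of member DARs was thus below that of all peaks. Counted as higher in mLN it was 10%, 6.67% and 10%, against 6.49%, 8.55% and 9.43%, and rested on 3, 2 and 3 peaks. In 3 of 30 member peaks all mLN libraries lay above all pLN libraries (10%, against 8.6% of all peaks) and in 1 all lay below (3.33%, against 8.77%). The count under GF fell to 1 without mLN-GF replicate 1 or 3 and to 0 without pLN-GF replicate 1 or 3.

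Other distal peaks of Irf4 and Irf8 were lower in mLN by less than 2-fold. Averaged over housing, 8 of 30 member peaks (26.7%, against 31.4% of all peaks) had an adjusted p below 0.05 whatever the fold, the 3 above and 5 lower in mLN (16.7%, against 15.9%). At Irf4 -26.5 kb the lowest, median and highest mLN library had 27.2, 38.4 and 48.5 RPKM, and the pLN libraries 42.9, 58.5 and 51.4 under SPF and 42.8 and 57.6 under GF housing (difference -0.43, SE 0.15, limma adjusted p = 0.0433). At its neighbour, Irf4 -24.2 kb, mLN libraries ran from 32.2 to 45.3 RPKM, all below the pLN libraries at 46.3 to 58.3 (difference -0.38, SE 0.12, adjusted p = 0.0306). At Irf8 -24.8 kb mLN libraries had 11.9 to 29.8 RPKM and pLN libraries 27.1 to 45.1 (difference -0.80, SE 0.23, adjusted p = 0.0163). Only Irf4 -24.2 kb of these showed no overlap between the nodes over all 11 libraries.

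The remaining pair lay downstream of Irf8 within the gene model Gm20388. Irf8 +72.7 kb had 25.8 to 63.1 RPKM in mLN and 50.8 to 81.1 in pLN (difference -0.56, SE 0.19, adjusted p = 0.0368). Irf8 +111.2 kb had 9.97 to 18.5 RPKM in mLN and 18.5 to 26.0 in pLN (difference -0.67, SE 0.23, adjusted p = 0.037). Peaks assigned to Irf8 thus moved in both directions, with +7.7 kb higher and -24.8 kb, +72.7 kb and +111.2 kb lower in mLN, and so did those of Irf4. The 5 lower peaks rested on single libraries: 0 of the lower member peaks passed without pLN-GF replicate 3, 1 without mLN-GF replicate 3 or pLN-SPF replicate 2, 2 without pLN-GF replicate 1 or pLN-SPF replicate 3, and 3 without mLN-GF replicate 1, mLN-SPF replicate 3 or pLN-SPF replicate 1.

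**Figure D2:**
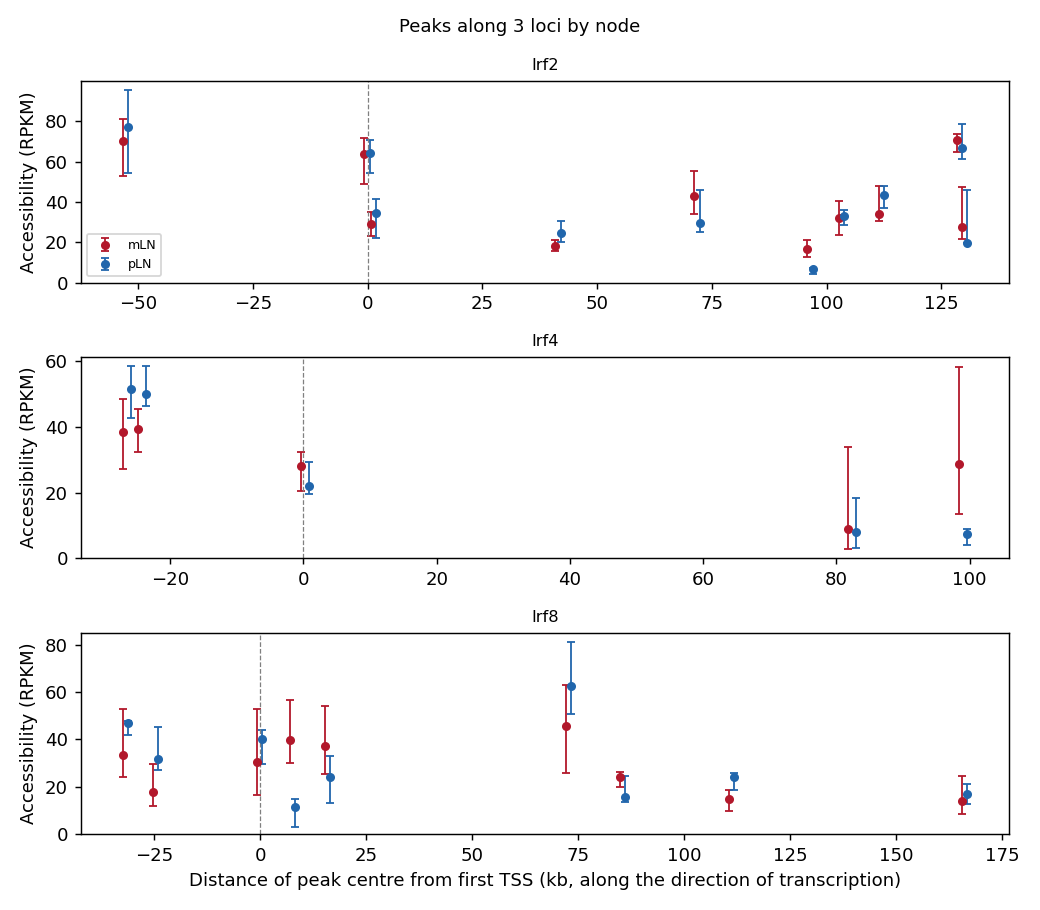
Accessibility in RPKM (vertical axis, from 0) of every peak assigned to Irf2, Irf4 and Irf8 against its distance from the first TSS in kb (horizontal axis), in mLN (6 libraries) and pLN (5 libraries) over both housings. Points are medians, bars run from the lowest to the highest library, and mLN and pLN are drawn slightly apart. At Irf8 +7.7 kb the ranges are apart with mLN above, and at Irf4 -24.2 kb they are apart with pLN above.

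The other distal peaks did not pass. The 10 peaks of Irf2 spanned -52.7 kb to +130.0 kb, and its most accessible, at -52.7 kb, averaged 72.1 RPKM over all libraries with a node difference of -0.19 (adjusted p = 0.428). Irf2 +41.5 kb (-0.47, adjusted p = 0.0507) and Irf8 +15.8 kb (0.64, adjusted p = 0.0551), an intronic peak of Irf8 downstream of the called one, lay just outside the adjusted p of 0.05. Under SPF housing Irf1 -8.0 kb had 55.4, 48.6 and 44.4 RPKM in mLN-SPF against 68.3, 71.2 and 61.1 in pLN-SPF (difference -0.43, adjusted p = 0.128), and at Irf1 -6.3 kb the difference was 0.08 (adjusted p = 0.789). Over all 30 peaks the median node difference averaged over housing was 0.01, with 15 positive and 15 negative, and over all peaks it was 0.01.

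Promoter peaks of the IRF genes were open in every library and differed little between the nodes. Their mean levels ran from 25.2 to 63.0 RPKM, around the median of 39.5 over all 12760 promoter peaks. No promoter peak of a member was called, the greatest absolute node difference was 0.25 and the lowest adjusted p 0.197. Over all peaks, promoters were called between the nodes less often (1.92%) than other peaks (21.3%), averaged over housing.

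Among the factors of the interferon response itself, the Irf1 promoter (chr11:53769673-53770608) had 72.3, 49.2 and 60.6 RPKM in mLN-SPF, 38.3, 54.8 and 51.8 in mLN-GF, 47.9, 48.7 and 56.9 in pLN-SPF and 36.3 and 43.2 in pLN-GF. Both pLN-GF libraries were below all pLN-SPF libraries, and the other pairs of groups that differ in node alone or in housing alone overlapped. Within pLN, 28% of all peaks were apart by housing. The main Irf2 promoter peak (chr8:46739245-46740075) was the most accessible, with 65.1, 67.8 and 59.4 RPKM in mLN-SPF, 48.9, 62.5 and 71.6 in mLN-GF, 67.7, 70.4 and 61.0 in pLN-SPF and 64.4 and 54.6 in pLN-GF. A weaker one, within 1 kb of a later Irf2 TSS and at +1.3 kb (chr8:46740698-46741311), had 35.2, 27.9 and 23.0 RPKM in mLN-SPF, 30.1, 31.6 and 24.6 in mLN-GF, 37.5, 31.1 and 41.5 in pLN-SPF and 22.2 and 34.6 in pLN-GF. The nodes overlapped at both Irf2 promoter peaks. The Irf9 promoter peak (chr14:55603661-55604597), which also overlaps Rnf31, had 51.9, 50.3 and 39.9 RPKM in mLN-SPF, 43.1, 44.5 and 41.8 in mLN-GF, 49.2, 53.7 and 36.3 in pLN-SPF and 42.0 and 40.7 in pLN-GF. Its groups overlapped throughout.

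For the factors that act downstream of nucleic acid sensing, the Irf3 promoter peak (chr7:44997203-44997981) also covers the TSS of Bcl2l12 and cannot be assigned to either gene alone. It had 64.4, 35.7 and 43.9 RPKM in mLN-SPF, 34.2, 41.9 and 27.7 in mLN-GF, 44.0, 41.5 and 31.5 in pLN-SPF and 33.5 and 32.2 in pLN-GF. Groups that differ in node alone or in housing alone overlapped, and mLN-SPF replicate 1 stood highest. The Irf7 promoter (chr7:141265940-141266647) had 56.3, 32.5 and 50.3 RPKM in mLN-SPF, 52.5, 39.3 and 35.8 in mLN-GF, 44.6, 44.1 and 46.6 in pLN-SPF and 33.7 and 42.8 in pLN-GF. The mLN libraries spanned the whole pLN range, and within pLN both GF libraries were below all SPF libraries (28% of all peaks were apart by housing there). The node difference averaged over housing was 0.16 for Irf3 (95% interval -0.21 to 0.53) and 0.07 for Irf7 (-0.27 to 0.41), so that a 2-fold difference lay outside both intervals.

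For the lineage factors, the Irf4 promoter (chr13:30748981-30749853) was the least accessible, with 29.4, 26.6 and 32.3 RPKM in mLN-SPF, 24.5, 29.6 and 20.4 in mLN-GF, 22.1, 21.1 and 29.2 in pLN-SPF and 19.4 and 23.0 in pLN-GF. It lay at the 19.4th percentile of all promoter peaks. The Irf8 promoter (chr8:120735823-120736725), at the 39.0th percentile, had 52.8, 35.1 and 31.2 RPKM in mLN-SPF, 16.4, 29.6 and 26.3 in mLN-GF, 40.6, 40.2 and 43.8 in pLN-SPF and 29.5 and 31.6 in pLN-GF. Within each node every SPF library was above every GF library, while the nodes overlapped. Of all peaks, 11% were apart by housing, in either direction, in mLN and 28% in pLN. The share apart in both nodes and in the same direction was not computed. The node difference was -0.24 (95% interval -0.62 to 0.15), against 1.99 at the intronic peak of the same gene.

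In order of mean level the promoter peaks were Irf2, Irf1, Irf9, Irf7, Irf3, Irf8, the second Irf2 peak and Irf4. Neighbours in that order were not apart in all libraries: Irf2 exceeded Irf1 in 9 of 11 libraries, Irf1 exceeded Irf9 and Irf9 exceeded Irf7 in 6 of 11 each, Irf7 exceeded Irf3 in 8, Irf3 exceeded Irf8 in 10, Irf8 exceeded the second Irf2 peak in 8 and that peak exceeded Irf4 in 10. The order is read per length of peak.

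**Figure D3:**
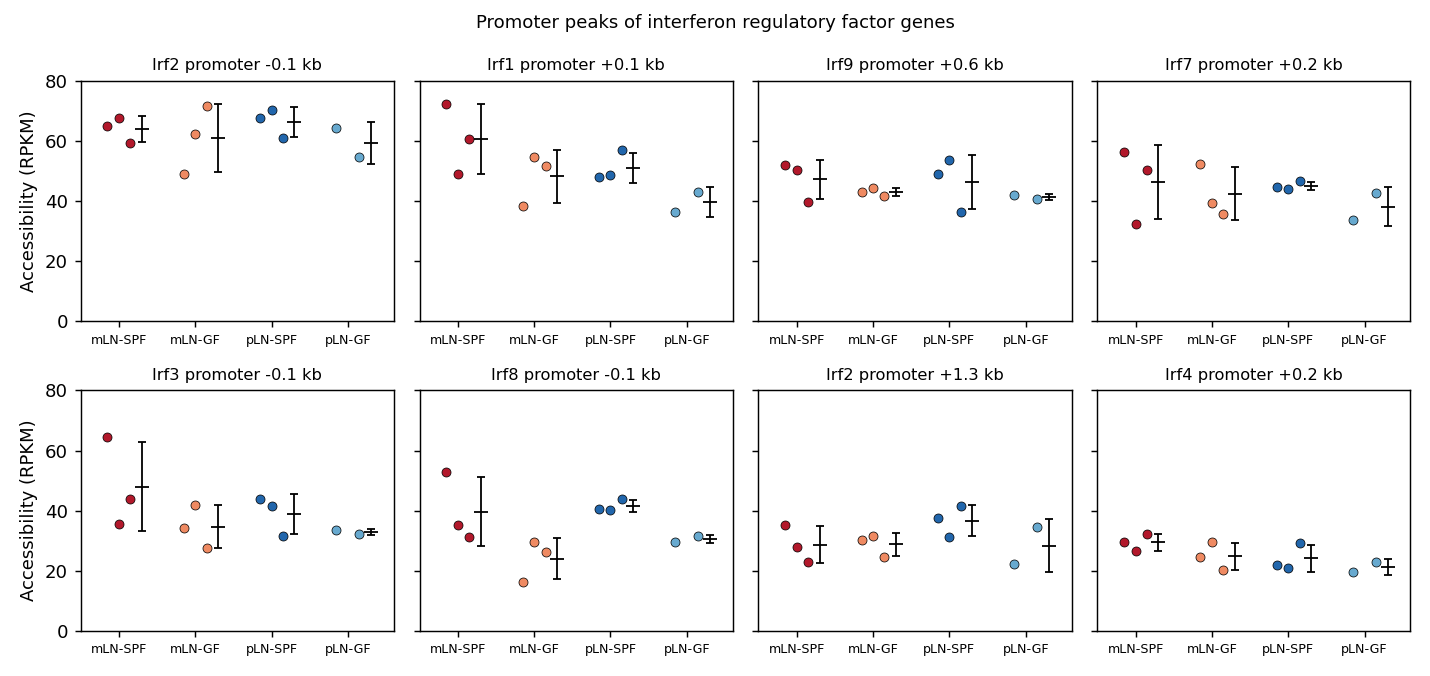
Accessibility in RPKM (vertical axis, 0 to 80 in each panel) of the 8 promoter peaks by group, in order of mean level. Points are libraries, and the bar beside them is the mean with SD (n = 3, or 2 in pLN-GF). The node ranges overlap in every panel, and at Irf8 the SPF libraries are above the GF libraries within each node. Of all peaks, 11% were apart by housing in mLN and 28% in pLN, each node taken alone and in either direction.

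The stretches upstream of the first TSS of Irf1 and Irf8 are shown because, of the 6 members searched in this stretch, these hold STAT letters (TTCNNNGAA, in capitals), found in 5.78% of the same 200-base stretch of 21829 protein-coding genes. Both stretches run 5′ to 3′ on the plus strand of GRCm38 and end at the base before the TSS.
Irf1, chr11:53769814-53770013: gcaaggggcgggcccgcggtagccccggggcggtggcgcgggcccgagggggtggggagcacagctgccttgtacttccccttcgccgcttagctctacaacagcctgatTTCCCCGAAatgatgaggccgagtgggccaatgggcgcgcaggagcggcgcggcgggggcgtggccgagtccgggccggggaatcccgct
Irf8, chr8:120736158-120736357: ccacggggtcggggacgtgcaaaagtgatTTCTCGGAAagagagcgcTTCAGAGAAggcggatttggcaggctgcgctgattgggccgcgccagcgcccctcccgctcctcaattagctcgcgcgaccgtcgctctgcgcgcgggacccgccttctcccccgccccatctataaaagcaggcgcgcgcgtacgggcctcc
The Irf1 stretch held 1 match to the STAT letters, TTCCCCGAA, and the Irf8 stretch held 2, TTCTCGGAA and TTCAGAGAA. For each of the 6 motifs only the letters given above were searched. Other forms of the same sites, those of NF-kB among them, would stay unmarked. The same stretches of Irf2, Irf3, Irf4 and Irf7 held none of the 6 motifs, and that of Irf9 was not searched because its first TSS lies outside the peak. In the 300-base windows around the peak centres the STAT letters stood in the promoter peaks of Irf8, Irf9 and, for the main peak, Irf2, and in Irf1 -6.3 kb, and not in that of the Irf1 promoter.

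Housing was compared to ask whether microbial colonization moves accessibility at these genes. No member peak was called between SPF and GF by limma in mLN (background 0.00236% of all peaks), in pLN (0.00707%) or averaged over location (0.066%), and none had all SPF libraries apart from all GF libraries (0.832% of all peaks). Within mLN, 16.7% of member peaks were apart by housing, against 11% of all peaks. Within pLN these shares were 20% and 28%. Limma on reads recovered from the RPKM values also called 0 member peaks by housing. At an unadjusted p below 0.05 there were 3 member peaks in mLN (10%, against 8.11% of all peaks), 1 in pLN (3.33%, against 6.21%) and 4 averaged over location (13.3%, against 11.2%). Those 4 were the Irf8 promoter (0.57 higher in SPF, SE 0.18, adjusted p = 0.288), the Irf1 promoter (0.34, SE 0.14, adjusted p = 0.395), Irf2 +103.2 kb (0.32, SE 0.13, adjusted p = 0.403) and Irf4 +82.3 kb (-0.996, SE 0.43, adjusted p = 0.414), a peak of 117 bases that rested on 1 to 15 reads per library.

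The Irf8 promoter gave 0.70 in mLN (adjusted p = 0.514) and 0.43 in pLN (adjusted p = 0.896), none past the threshold, and the 95% interval of the averaged difference was 0.18 to 0.95. That interval is not adjusted for the number of peaks tested. It belongs to the member peak with the lowest adjusted p of the 30 in that comparison (limma adjusted p = 0.288). Estimates for all 8 promoter peaks were above 0, from 0.12 to 0.57, with a median of 0.20 against 0.07 over all promoter peaks, of which 63.9% were above 0. At Irf2 +103.2 kb the mLN-SPF libraries had 37.8, 36.2 and 40.4 RPKM and the mLN-GF libraries 23.5, 25.0 and 28.1 (difference 0.56, adjusted p = 0.47). These groups did not overlap. Of all peaks, 33.1% were apart between the nodes under SPF and 48.8% under GF housing. Here mLN-GF lay below pLN-GF (33.2 and 29.1, difference -0.28, limma adjusted p = 0.388). The mLN-SPF libraries lay above pLN-SPF (33.6, 36.1 and 28.8), by 36.22 against 36.15 at the closest (difference 0.22, limma adjusted p = 0.448). Neither node difference passed the threshold. The test of that reversal, the interaction of location and housing, gave 0.49 with an adjusted p of 1. No member peak was called for the interaction by limma (0% of all peaks), 0 had an unadjusted p below 0.05 (3.5% of all peaks) and limma on recovered reads called 0. At the 3 called peaks the interaction was 0.30 (95% interval -1.06 to 1.66) for Irf8 +7.7 kb, 0.77 (-0.62 to 2.15) for Irf4 +99.0 kb and 0.17 (-0.88 to 1.22) for Irf2 +96.4 kb, so that a 2-fold change of the node difference with housing lay inside each interval.

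**Figure D4:**
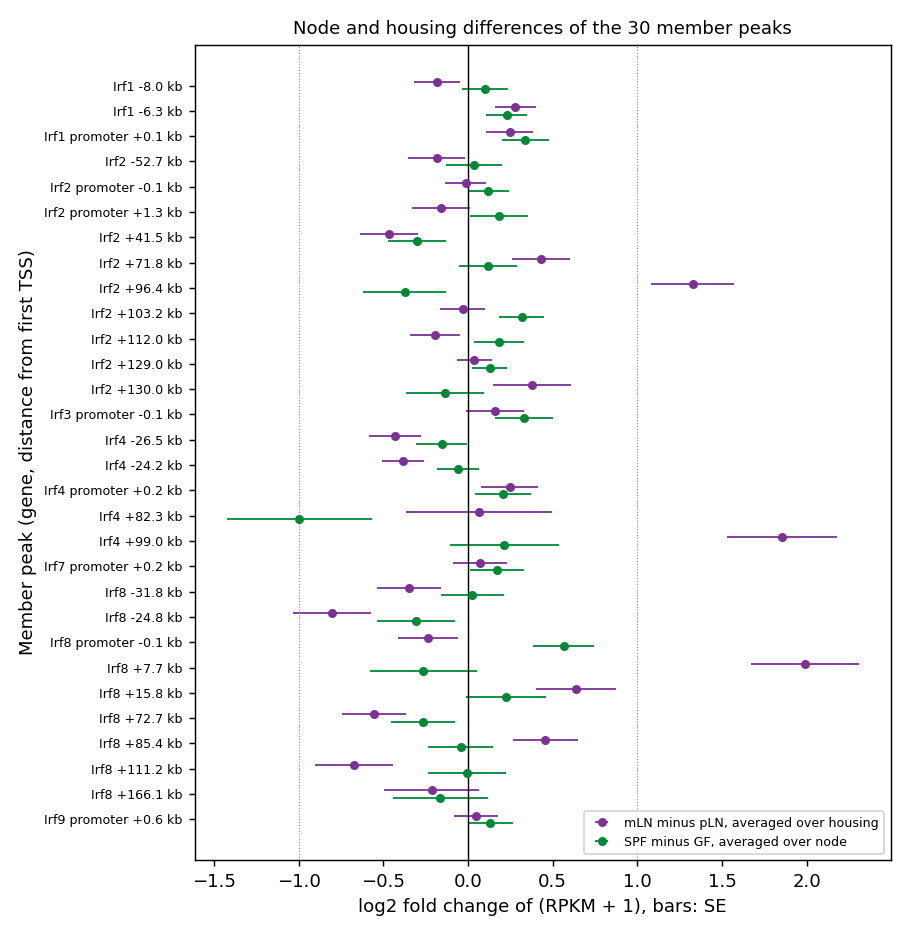
Log2 fold change of RPKM + 1 (horizontal axis) with SE for each of the 30 member peaks (rows), mLN minus pLN averaged over housing and SPF minus GF averaged over node. Dotted lines mark a 2-fold change. The 3 called peaks stand at 1.33 to 1.99 in the node difference, and the housing differences lie between -0.996 and 0.57, none called.

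Markers of other cells were set beside the called peaks, since Irf4 and Irf8 are known for their role in hematopoietic cells. The only hematopoietic marker with a promoter peak, Coro1a, an actin-binding protein of leukocytes, had 17.7 to 31.4 RPKM in mLN-SPF and 26.3 to 35.1 in mLN-GF, and had 18.3 to 42.1 in pLN-SPF and 13.8 to 24.7 in pLN-GF. The other 13 hematopoietic markers, Cd79a, Itgam, Csf1r and Spi1 among them, had none. The summed endothelial markers reached 92.7 to 147 RPKM in mLN-SPF and 107.1 to 134.6 in mLN-GF, against 80.2 to 113.9 in pLN-SPF and 88.2 to 124.9 in pLN-GF. Those of non-endothelial SCs reached 333.8 to 400.4, 269.3 to 353.9, 313 to 355.9 and 260.3 to 297.9 in the same order. Some single markers were apart between the nodes, as were 33.1% of all peaks under SPF and 48.8% under GF housing. The Cd34 promoter peak had 63.3 to 71.1 RPKM in mLN-SPF and 53.5 to 71 in mLN-GF, all above pLN-SPF (39.9 to 49.3) and pLN-GF (38.4 to 46.3). Pdgfrb was lower in mLN-SPF (44.6 to 46.7) than in pLN-SPF (53.2 to 58.4), and Tek was higher in mLN-GF (41.2 to 46.1) than in pLN-GF (29.3 to 32.4), as was Coro1a. In the other housing the nodes overlapped at each of these, with Tek at 37.9 to 48.6 in mLN-SPF and 30.2 to 39.7 in pLN-SPF. Pdgfra, Col1a1, Col1a2, Cxcl12, Kdr, Prox1 and Flt4 overlapped between the nodes under both housings. The part of these cells in the node differences was not tested. In sorted populations more cells with an open site and a more open site per cell cannot be told apart.

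Genes that act before and after the IRFs were followed from a list of 56 names, of which 51 had a peak. Among sensors, adaptors and kinases 16 of 17 names were in the annotation, and among interferon-induced targets 19 of 20. A name without a peak therefore need not lack open chromatin. Between mLN-SPF and pLN-SPF, 8 of their 159 peaks were called higher in mLN and 8 lower, 10.1% against 10.8% of all peaks. Sensors, adaptors and kinases had 0 higher and 3 lower of 36 peaks. Interferon receptors and JAK-STAT genes had 4 higher and 4 lower of 58. Partner and corepressor factors had 2 higher and 1 lower of 40, and interferon-induced targets 2 higher and 0 lower of 25. Between mLN-GF and pLN-GF, 10 of the 159 were higher and 4 lower (8.81%, against 13.2% of all peaks). Averaged over housing 9 were higher and 8 lower (10.7%, against 15.5%). In both of these comparisons the interferon-induced targets had 2 higher and 1 lower. None of the 159 was called in a housing comparison or for the interaction.

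Called peaks that were higher in mLN-SPF lay in Jak1, a kinase of all interferon receptors (28.3 kb from the TSS, 37.7 ± 6.66 against 11.9 ± 2.18 RPKM, SD, n = 3 each, limma difference 1.58, adjusted p = 0.00244), near Ifnb1, which encodes interferon beta (2.0 kb from the TSS, 46.7 ± 11.5 against 11.8 ± 14.1, difference 2.44, adjusted p = 0.0112), near Socs3, a feedback inhibitor of cytokine signalling (1.05, adjusted p = 0.0169), and near Irf2bp2, a corepressor that binds Irf2 (1.42, adjusted p = 0.0232). Peaks that were lower lay near Tlr3, the receptor for double-stranded RNA (9.75 ± 1.84 against 30.0 ± 3.29, difference -1.54, adjusted p = 0.00462), near Socs1, an inhibitor of JAK kinases (-1.23, adjusted p = 0.012), near Irf2bpl, a relative of Irf2bp2 (-1.04, adjusted p = 0.0157) and near Tlr4, the receptor for lipopolysaccharide (-1.44, adjusted p = 0.0197). Jak1 had 3 called peaks higher and 1 lower in mLN-SPF, the lower one in an intron 41.9 kb from the TSS (15.1 ± 5.54 against 30.0 ± 1.97, difference -1.02, adjusted p = 0.0422), and that call was lost without any one of 7 libraries (adjusted p = 0.0523 to 0.151). Ifnb1 and Irf2bp2 had 2 higher each and Tlr4 had 2 lower, of which the one with the lowest adjusted p is given. The calls at Jak1 28.3 kb and Tlr3 held without any single library. Without pLN-SPF replicate 1 those at Socs1, Socs3, Irf2bpl and Tlr4 were lost (adjusted p = 0.0505 to 0.0765), and without pLN-SPF replicate 2 those at Ifnb1, Irf2bp2, Irf2bpl and Tlr4 (0.0514 to 0.102). Without pLN-SPF replicate 3 Socs3 (0.89) fell short of 2-fold. Without mLN-SPF replicate 1 Socs3, Tlr4 and Irf2bp2 were lost (adjusted p = 0.065 to 0.0888), without mLN-SPF replicate 2 Irf2bpl fell short of 2-fold (-0.96), and without mLN-SPF replicate 3 Tlr4 and Irf2bp2 were lost (0.0694 to 0.0836) and Socs1 fell short of 2-fold (-0.96).

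The pattern of Irf8 +7.7 kb over the 11 libraries was most like that of peaks nearest to Tbc1d7 (Pearson r of log2(RPKM + 1) = 0.973), Cmklr1 (0.971), Tom1l2 (0.968), Csnk1g3 (0.967) and Rbm20 (0.967), all higher in mLN. At the Tbc1d7 peak mLN libraries ranged from 22.9 to 36.5 RPKM and pLN libraries from 2.84 to 11.8. These points share their libraries and the node difference, and likeness is a description.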

How the data were processed

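ATAC-seq was read from 1 table of peaks. Per the study's methods and the submitters' processing notes, the authors aligned reads to mm10 (GRCm38) with STAR 2.5.3a, used Picard to drop duplicate reads, found broad peaks with MACS2 in each replicate, merged these and tested raw counts with DESeq2 1.22. The deposited values are RPKM per peak and library. The authors' fold changes, adjusted p-values and gene names in the table were not used. Of 42434 entries 10 were repeats. Of 12 samples, 1 value column, labelled as a pLN-GF library, was the average of the remaining 5 pLN libraries at each of the 42434 entries (within a relative 1e-09) and was not used as a sample.

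Peaks were assigned to the nearest TSS of protein-coding genes (GENCODE vM21), ties included. The test was limma 3.58.1 (R 4.3.3) on RPKM after adding a pseudocount of 1 and taking log2 (4 group means, 7 residual degrees of freedom, trended prior), with Benjamini-Hochberg adjustment over 42424 peaks and no filter. Values were whole multiples of 1 read in 100% of entries (tolerance 0.02), and reads recovered this way entered limma voom as an alternative. The fit was run on simulated counts with known changes, drawn independently for each library, which checks the code and not the spread between these libraries. Sequences came from GRCm38 (NCBI).

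The members, lists and motifs were chosen with earlier results of these data known. Every promoter peak and every called peak of a member was given by library, pathway genes were named where a peak was called in mLN-SPF vs pLN-SPF or by housing (at most 10, by adjusted p), and the 5 most similar genes were taken by Pearson r. An item of the pathway list that the rule would name is not reported here. Peaks named for an adjusted p alone, or as just outside it, peaks with an unadjusted p by housing, single markers set beside the node difference and further called peaks of named pathway genes were chosen after their values were seen. Alternatives were other pseudocounts, a filter, other scalings, voom, pairwise fits, a replicate block, leaving out libraries and other peak assignments.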

Additional observations from a re-analysis of the deposited data

How the results depend on the processing

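The counts of IRF DARs ranged from 2 to 3 for mLN-SPF vs pLN-SPF and from 2 to 3 averaged over housing under every alternative, and stayed at 0 for each housing comparison and for the interaction. The count for mLN-GF vs pLN-GF, 2 as reported, was 1 with a pseudocount of 5 and ranged from 0 to 3 when 1 library was left out. At that pseudocount the Irf2 +96.4 kb peak fell short of 2-fold in each node comparison (0.95 to 1.00), by the construction of the larger pseudocount, as did the peaks of Socs3 (0.94), Irf2bpl (-0.90) and the lower one of Jak1 (-0.84). The latter also fell short with voom (-0.995) and quantile normalization (-0.989), and missed the adjusted p with only the groups compared (0.0611). The call of Irf4 +99.0 kb under GF housing was gained with only the groups compared (adjusted p = 0.0322). Promoter differences near 0 changed sign. For mLN-SPF vs pLN-SPF these were Irf7 with voom (-0.012) and quantile normalization (-0.021) and Irf9 without both mLN libraries numbered 2 (-0.0090), and averaged over housing the main Irf2 promoter peak with voom (0.0067). With 1 library left out, mLN-SPF minus pLN-SPF ranged from -0.15 to 0.23 for Irf7, -0.13 to 0.15 for Irf9, -0.11 to 0.0040 for the main Irf2 promoter peak and -0.32 to 0.051 for the Irf8 promoter. Averaged over housing the ranges were -0.012 to 0.19 for Irf7, -0.034 to 0.11 for Irf9 and -0.074 to 0.061 for Irf2. The cause was not tested. The count past adjusted p alone, 8, was 8 to 11 under the other settings and 4 to 9 with 1 library left out.

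Samples shared replicate numbers, and deviations from group means correlated between -0.152 and 0.271 over 15 same-numbered pairs, above 0.1 in 5. Pairs with different numbers ran from -0.303 to 0.21, and pairs numbered 2 had 0.196, 0.224 and 0.271. The labels do not say whether the numbers mark pairs, and these correlations do not settle it. With a replicate block the counts were 3, 3 and 3 for mLN-SPF vs pLN-SPF, mLN-GF vs pLN-GF and the average over housing, Irf4 +99.0 kb being gained under GF housing (1.66, adjusted p = 0.0261), and 0 for the housing comparisons and the interaction. Over all peaks the block called 5065, 7359 and 7280 in the same 3 node comparisons, against 4567, 5588 and 6567 in the main fit. Voom called 51 in pLN by housing and 158 averaged over location, against 3 and 28. Depth limits the narrow peaks, at 1 read in the lowest library of Irf4 +82.3 kb and 3 in that of Irf8 +7.7 kb, Irf8 +166.1 kb and Irf4 +99.0 kb.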
